A study of Mus musculus with 16 samples.

Results

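Immature medullary thymic epithelial cells (mTEC) of mice that lacked Rbfox2 in the thymic epithelium (Rbfox2 tKO) were compared with the same cells of control mice at the level of gene expression. The libraries were chosen by their labels, as the immature mTEC libraries of the Rbfox2 line, and were 4 of the 16 libraries of the series, from 2 tKO and 2 control mice. All 4 mice were homozygous for the Rbfox2 lox allele, were labelled C57BL/6 and were 4 to 6 weeks old. The study's methods instead describe the Rbfox lines as kept on a mixed background of 129S2/Sv and C57BL/6J, so that the strain at and near Rbfox2 is not settled. The tKO mice also had 1 Foxn1 cre allele and 1 wild-type Foxn1 allele, whereas the control mice had wild-type Foxn1 alone, so that loss of Rbfox2 and presence of the Cre allele cannot be told apart within the line. Each genotype had a male mouse, numbered 1, and a female mouse, numbered 2. Cells were sorted as CD45-, EpCAM+, Ly51- and UEA+ cells with low MHC class II, 10000 per library by the labels. Mature mTEC, with high MHC class II, came from the same mice and made 4 more libraries, and the other 8 libraries came from mature and immature mTEC of an Rbfox1 line of the same design.

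RBFOX proteins are RNA-binding proteins that recognise the sequence UGCAUG, mostly in introns near alternative exons, and that promote or repress the inclusion of these exons by their position. Bound in the 3′ untranslated region of an mRNA, they can also alter its stability. Foxn1 encodes the transcription factor that thymic epithelial cells need to develop, and a Cre allele at this locus acts in cortical as well as medullary epithelium. Immature mTEC include the precursors of the MHC class II-high cells that express AIRE and present self-antigens, together with cells that make chemokines for thymocytes, and low MHC class II is also found in post-AIRE cells that resemble cells of other tissues (mimetic cells).

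The library totals were 1506134 and 1517955 counts in the tKO and 1973826 and 1740155 counts in the control mice, so both tKO libraries were shallower than both control libraries. Levels are given as CPM, counts scaled to a common library total after TMM normalization, which allows for this. After low-count genes were left out, 13060 rows of the count table entered edgeR's quasi-likelihood test, 12888 Ensembl genes and 172 loci of the authors' transcript assembly. The fit held the 8 immature libraries of both lines, which share 1 estimate of the spread. Log2 fold changes are tKO minus control throughout, and adjusted p values are those of Benjamini and Hochberg over all tested rows. P values measure the spread between these mice. DESeq2 was the second tool and gives no adjusted p to genes of low counts, so its counts cover the other genes. The epithelial markers Krt5 (4183 to 4639 CPM), Krt14 (2122 to 2394 CPM) and Epcam (701 to 781 CPM) were high in each of the 4 libraries. The CD45 gene, Ptprc, had 2 to 4 counts, and the T cell genes Cd3e, Cd8a, Ptcra, Rag1 and Rag2 had 0 to 2 counts. RNA of other cells was not absent. All 20 listed markers of thymocytes and blood cells summed to 83.3 and 110 CPM in the tKO and 61.4 and 69.0 CPM in the control libraries. Of these 20, 5 had enough counts to be tested. The 14 listed markers of fibroblasts and endothelium summed to 3076 and 2389 CPM in the tKO and 2358 and 1957 CPM in the control libraries.

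Rbfox2 (ENSMUSG00000033565, GRCm38 chr15:77078990-77307004, minus strand) had 54 and 34 counts in the tKO libraries against 195 and 157 in the controls. These were 37.2 and 23.0 CPM against 102 and 91.8 CPM, both tKO libraries lying far below both controls. The mean level fell from 97.1 ± 7.43 to 30.1 ± 9.99 CPM (SD, n = 2 mice), with a log2 fold change of -1.69 (SE 0.191, adjusted p = 0.000532 by edgeR). Counts cover the whole gene, exons outside the deleted part included, so the residual level does not measure intact mRNA. Rbfox1, the other family member expressed here, had 121 and 104 CPM in the tKO against 116 and 112 CPM in the control libraries. Those libraries overlapped, and the log2 fold change was -0.02 (SE 0.126, adjusted p = 0.986 by edgeR). Per kilobase of exon, controls held 11.9 RPKM of Rbfox2 and 25.9 RPKM of Rbfox1. Rbfox3 had 0 counts in 3 of the 4 libraries and 1 in the other. The level of Rbfox1 thus differed by less than its replicate error.

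With 2 mice a group, few genes passed the adjusted p between tKO and control mice. Of the 13060 rows, 12 had an adjusted p under 0.05, 0.0919% of those tested, of which 8 (0.0613%) were higher and 4 (0.0306%) lower in the tKO. With a fold change over 2 required as well, 7 were called, 0.0536%, of which 5 (0.0383%) were higher and 2 (0.0153%) lower. Unc119 and Slc13a2os lie next to Foxn1 and are set aside here with Foxn1 and Slc13a2. That left 5 called genes of 13056 (0.0383%), Cd36, Jak3 and 5330417C22Rik, which rose, and Sspn and Rbfox2 itself, which fell. A further 5 passed the adjusted p with a smaller fold, 10 (0.0766%) in all, Fabp4, MSTRG.59595 and Gm23935, which were higher, and Ptk2 and Itga3, which were lower. An unadjusted p under 0.05 was reached by 818 rows, 6.26%, of which 472 were higher and 346 lower. The median log2 fold change over all rows was -0.000277, with 49.9% above 0 and 50.1% below, and over the 10897 rows with more than 10 CPM its median size was 0.141. DESeq2 called 6 genes, 5 of them among the 7, and gave 242 rows an unadjusted p under 0.05. It called Gsta4 in addition and neither Sspn nor 5330417C22Rik.

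**Figure D1:**
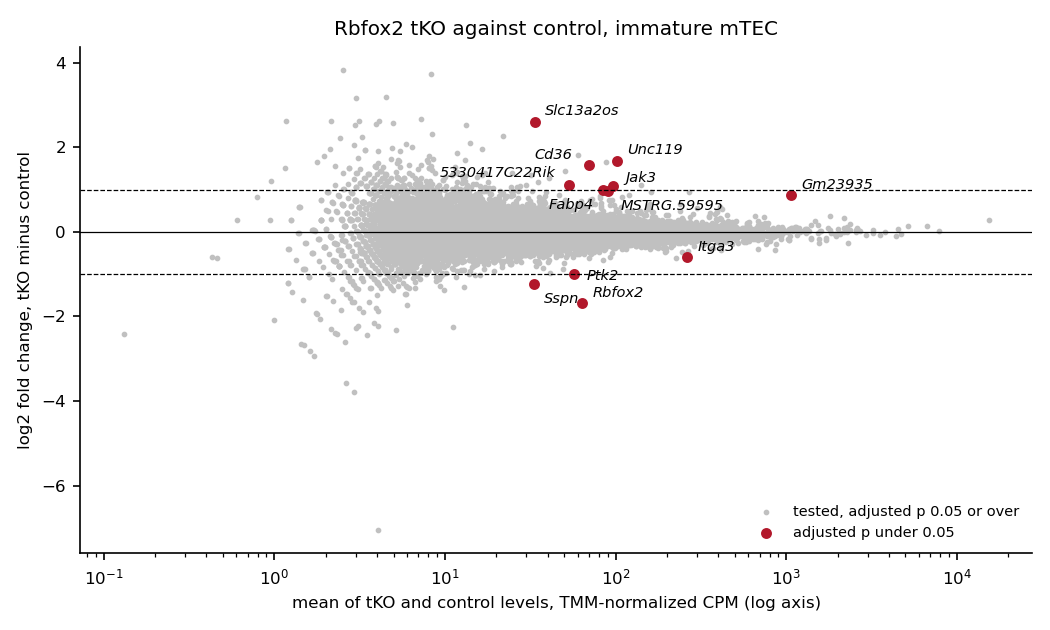
Each point is 1 of the 13060 tested rows, with its mean level in CPM on a log axis and its log2 fold change, tKO minus control, on the vertical axis. Dashed lines mark a fold of 2, and the 12 named points with an adjusted p under 0.05 lie between a log2 fold change of -1.69 (Rbfox2) and 2.61 (Slc13a2os).

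**Figure D2:**
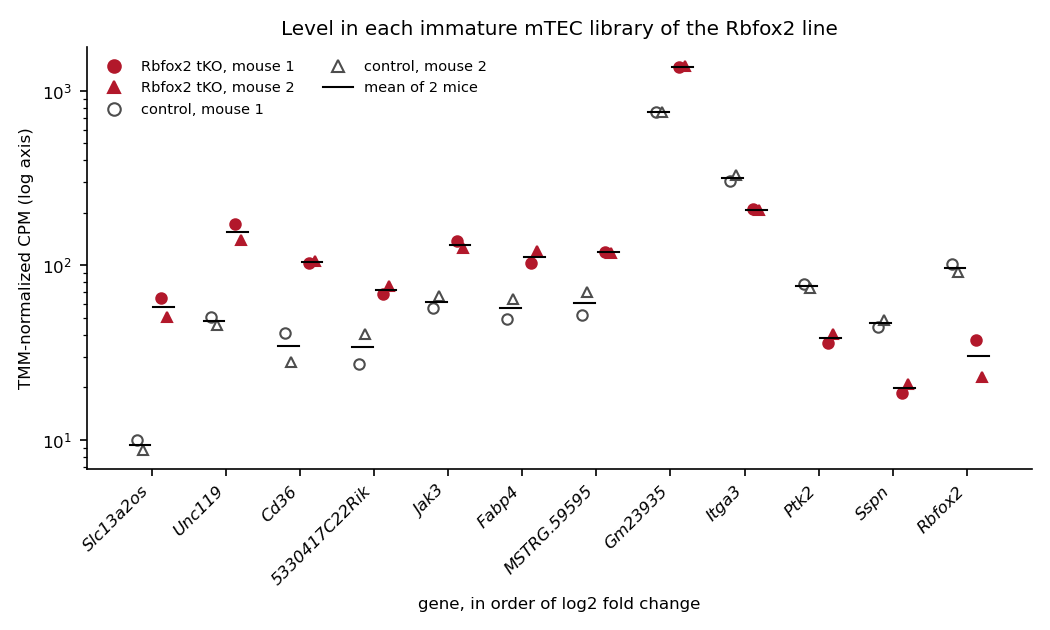
Level in CPM, on a log axis, of the 12 genes that passed the adjusted p, in each of the 4 immature libraries of the Rbfox2 line. Filled red symbols are tKO and open symbols control mice, circles are mouse 1, triangles mouse 2 and bars the mean of 2 mice. In all 12 genes both tKO libraries lie on the same side of both control libraries.

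Among the genes past the adjusted p, the largest rise outside the Foxn1 region was that of Cd36 (chr5:17781690-17888801, minus strand), a scavenger receptor that takes up long-chain fatty acids and oxidised lipoproteins. It had 150 and 156 counts in the tKO against 78 and 48 in the control libraries, or 103 and 106 CPM against 40.9 and 28.1 CPM. The 2 tKO libraries nearly coincided and stood well above both controls. The mean rose from 34.5 ± 9.09 to 104 ± 1.71 CPM (SD, n = 2), a fold of 3.0 and a log2 fold change of 1.59 (SE 0.187, adjusted p = 0.000689 by edgeR). Over 14 alternative analyses the log2 fold change stayed between 1.35 and 1.89, and the adjusted p was under 0.05 in each of them, with a highest value of 0.0183. In the Rbfox1 line Cd36 was lower than in all 4 of these libraries, with 13.1 to 17.6 CPM in its 4 immature libraries.

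Fabp4 (chr3:10204088-10208576, minus strand), a cytoplasmic carrier of fatty acids, moved the same way. It had 149 and 179 counts, 103 and 121 CPM, in the tKO and 94 and 110 counts, 49.3 and 64.3 CPM, in the control libraries. Its log2 fold change was 0.98 (SE 0.173, adjusted p = 0.0338 by edgeR). The adjusted p of Fabp4 passed in 7 of its 14 alternatives and was lost on leaving out any 1 of the 4 libraries, with a highest value of 0.643. Of a list of 15 genes of fatty acid uptake and binding that was drawn up after these values were seen, 12 were tested, and Cd36 and Fabp4 were the 2 that passed the adjusted p, both higher. An unadjusted p under 0.05 was reached by 5 of the 12, all higher, against 3.61% of all rows in that direction. Among them Scarb1, the receptor for high-density lipoprotein, had 64 and 56 against 35 and 33 counts and a log2 fold change of 1.12 (adjusted p = 0.176 by edgeR). The median over the 12 was 0.38.

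Capillary endothelium also expresses Cd36 and Fabp4, and markers of endothelium had higher values in the same libraries. Of 12 endothelial genes, a list likewise drawn up after the values were seen, all were tested, 0 passed the adjusted p in edgeR, DESeq2 gave 10 of them no adjusted p and the others none under 0.05, and 6 had an unadjusted p under 0.05 in edgeR, all higher, against 3.61% of all rows. Their median log2 fold change was 0.89. Cdh5, the cadherin of endothelial junctions, had 93 and 76 counts in the tKO against 50 and 36 in the controls, Kdr, a VEGF receptor, 33 and 20 against 18 and 8, and Emcn, a surface mucin of capillaries and veins, 14 and 11 against 4 and 1. The 12 markers summed to 430 and 332 CPM in the tKO libraries against 281 and 160 CPM in the controls, and to 71.0 to 156 CPM in the immature libraries of the Rbfox1 line. None was at 0 in any of the 4 libraries of the Rbfox2 line. The tKO libraries were both above both controls in this sum, and the control libraries differed more from each other than the tKO libraries did in ratio. A list of 14 markers of fibroblasts and endothelium had 0 past the adjusted p and a median of 0.39, with 13 above 0. An unadjusted p under 0.05 was reached by 3, the same Cdh5, Kdr and Emcn, all higher, against 3.61% of all rows. This list summed to 3076 and 2389 CPM in the tKO against 2358 and 1957 CPM in the control libraries. In the immature libraries of the Rbfox1 line it summed to 384 to 771 CPM. The part of this RNA in the differences between genotypes or lines was not tested. In these bulk libraries a different number of cells of a type and a different amount of RNA per cell cannot be told apart. The part of endothelial RNA in the rise of Cd36 and Fabp4 was not tested.

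**Figure D3:**
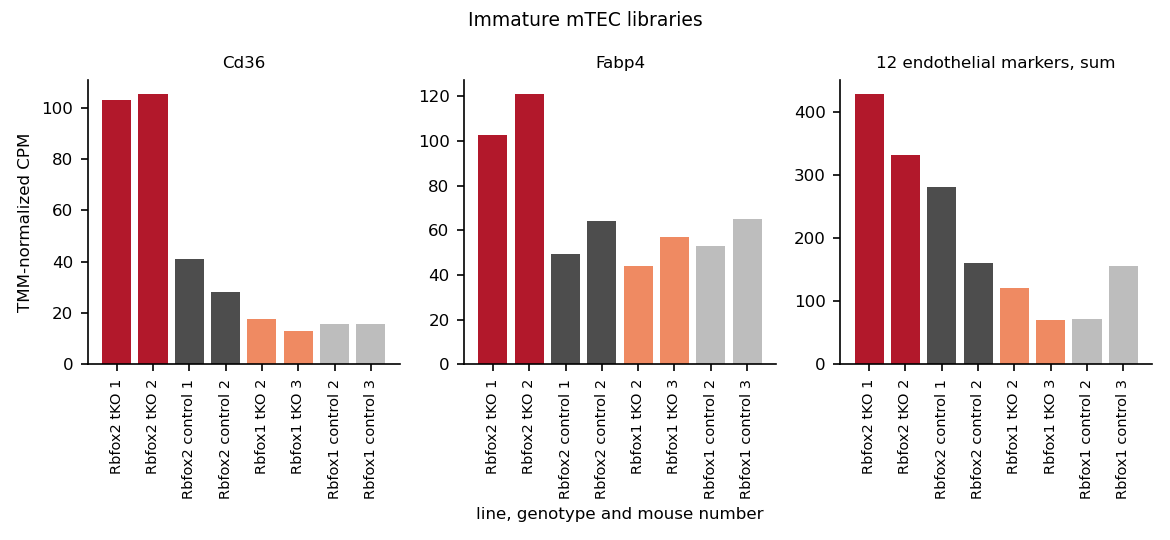
Bars give the level in CPM of Cd36, of Fabp4 and of the summed 12 endothelial markers in each of the 8 immature libraries, red for Rbfox2 tKO, dark grey for its controls, orange for Rbfox1 tKO and light grey for its controls. Both Rbfox2 tKO libraries are the highest of the 8 in each panel, with marker sums of 430 and 332 CPM.

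Jak3 (chr8:71676296-71690575, plus strand), the tyrosine kinase that signals from cytokine receptors with the common gamma chain, had 200 and 185 counts in the tKO against 108 and 114 in the control libraries. Its levels of 138 and 125 CPM lay well above those of 56.7 and 66.7 CPM. The log2 fold change was 1.09 (SE 0.139, adjusted p = 0.00157 by edgeR) and stayed between 0.98 and 1.21 over 14 alternatives. The adjusted p passed in 13 of them and was 0.103 without control replicate 1. Il2rg, the gene of the common gamma chain, had 0 counts in all 4 libraries. The thymocyte and blood cell markers that were tested, 5 of 20, gave 0 with an unadjusted p under 0.05 in edgeR, and DESeq2 gave none of the 5 an adjusted p. The median of these 5 was 0.77, with 4 of 5 above 0. All 20 summed to 83.3 and 110 CPM in the tKO against 61.4 and 69.0 CPM in the controls, so that the sum was higher in both tKO libraries and its part in the rise of Jak3 was not tested. Flt3, Siglech and Adgre1 were at 0 in each of the 4 libraries. Of 25 genes of JAK kinases, their receptors and STATs, listed after the values were seen, 20 were tested. Besides Jak3 none passed the adjusted p by edgeR or DESeq2, and the median was -0.04. At an unadjusted p under 0.05 in edgeR, Jak3 was higher and Il4ra (log2 fold change -0.27) lower. Over all rows 3.61% were higher and 2.65% lower at that level. 

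The RBFOX recognition sequence was looked for in the mRNAs of the genes that passed the adjusted p, to show where it occurs. The letters TGCATG were searched on the sense strand of the longest coding transcript of each gene in GENCODE M21, introns not included. Of the 9 protein-coding genes, 6 held it at least once, 66.67%, against 56.62% of the 12018 tested protein-coding genes, and their transcripts were longer (median 4512 against 3248 bases). Cd36 and Jak3 held it most often, 4 times each, and their sites are printed with the letters TGCATG in capitals and 7 bases on either side. Those of Cd36 lie in its 5′ untranslated region (site 1, chr5:17829462-17829467) and its 3′ untranslated region (sites 2 to 4, chr5:17781976-17781981, chr5:17781812-17781817 and chr5:17781781-17781786, minus strand). Those of Jak3 lie in the coding sequence on the plus strand (chr8:71678414-71678419, chr8:71682405-71682410, chr8:71682969-71682974 and chr8:71684559-71684564). A match describes the letters and is no evidence of binding.
Cd36 site 1: ctgtttaTGCATGaattagt
Cd36 site 2: tcaaaacTGCATGgcagctt
Cd36 site 3: tctgcacTGCATGtggtgat
Cd36 site 4: tcaggtaTGCATGcacacat
Jak3 site 1: ggagcccTGCATGtgctcct
Jak3 site 2: tcggaacTGCATGgagtctt
Jak3 site 3: cggcgtcTGCATGgctggag
Jak3 site 4: cacacagTGCATGgcctatg

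Sspn (chr6:145931641-145965223, plus strand), which encodes sarcospan of the dystrophin-glycoprotein complex, had the largest fall after Rbfox2 among the genes past the adjusted p. It had 27 and 31 counts in the tKO against 85 and 83 in the control libraries, or 18.6 and 21.0 CPM against 44.6 and 48.5 CPM. Neither genotype's libraries came near those of the other, and the log2 fold change was -1.23 (SE 0.215, adjusted p = 0.0338 by edgeR). The adjusted p passed in 8 of 14 alternatives, and DESeq2 gave Sspn none under 0.05. It was also lost in the 4 libraries of the line fitted alone and without any 1 of these libraries. The log2 fold change stayed between -1.32 and -1.14. Of 14 genes of the dystrophin-glycoprotein complex, listed after the values were seen, 11 were tested, and Sspn was the 1 with a p under 0.05, unadjusted or adjusted. The complex's other members included Utrn at -0.25 and Sgcb at -0.40, and 6 of the 11 had both tKO libraries below both controls, against 17.7% of all rows. Their median was -0.18.

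A kinase and an integrin of cell adhesion fell as well. Ptk2 (chr15:73205102-73423280, minus strand), which encodes focal adhesion kinase, had 52 and 60 counts in the tKO against 148 and 127 in the controls, or 35.8 and 40.6 CPM against 77.7 and 74.3 CPM. Its log2 fold change of -0.99 was just short of the fold threshold (SE 0.156, adjusted p = 0.0170 by edgeR). Itga3 (chr11:95044474-95076801, minus strand), the alpha 3 integrin subunit that binds laminin, had 305 and 307 against 580 and 566 counts, or 210 and 208 CPM against 304 and 331 CPM. The log2 fold change of Itga3 was -0.60 (SE 0.105, adjusted p = 0.0338 by edgeR). Both genes had tKO libraries that agreed closely and lay below both controls. Leaving out any 1 of the 4 libraries ended the adjusted p of both, as did fitting the 4 libraries alone and, for Ptk2, DESeq2, with highest values of 0.248 for Ptk2 and 0.300 for Itga3.

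Of 30 integrins, laminins and actin-adhesion genes, all of which were tested, Ptk2 and Itga3 were the 2 that passed the adjusted p in edgeR, and Itga3 was the 1 that did in DESeq2. This list was chosen with earlier results of these data known. An unadjusted p under 0.05 was reached by 10, all lower, against 2.65% of all rows in that direction, and by 0 in the higher direction, and 13 had both tKO libraries below both controls, against 17.7% of all rows. The median was -0.12, and 21 of the 30 were below 0, against 50.1% of all rows. Vcl, which encodes vinculin, had 468 and 572 counts against 893 and 842 and a log2 fold change of -0.44 (adjusted p = 0.358 by edgeR). Itga2, the alpha 2 integrin subunit, had few counts, 7 and 5 against 10 and 11, and a log2 fold change of -0.50 (adjusted p = 0.947). Itga6, a laminin-binding integrin that marks immature mTEC and has an RBFOX-regulated exon in other cells, had 982 and 965 against 1067 and 1154 CPM and a log2 fold change of -0.19 (adjusted p = 0.787). In Vcl, Itga2 and Itga6 both tKO libraries lay below both controls without passing the test.

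The remaining genes that passed were of less known function. 5330417C22Rik (chr3:108455694-108536536, minus strand) had 99 and 113 counts in the tKO against 52 and 69 in the controls and a log2 fold change of 1.11 (SE 0.194, adjusted p = 0.0338 by edgeR), which passed in 8 of 14 alternatives and not in DESeq2. MSTRG.59595, an assembled locus with no position in the files, had 174 and 174 against 99 and 120 counts and a log2 fold change of 0.97 (adjusted p = 0.0193 by edgeR), which passed in 8 of 13 alternatives (highest value 0.463) and was lost, among others, without tKO replicate 1, tKO replicate 2 or control replicate 1. Gm23935 (chr16:11144125-11144181, plus strand) is annotated as a miRNA within Zc3h7a on the opposite strand and had 1983 and 2044 against 1440 and 1285 counts. Its log2 fold change was 0.87 (SE 0.137, adjusted p = 0.0170 by edgeR), which was lost on leaving out any 1 of the 4 libraries (highest value 0.186). It is 57 bases long, and Zc3h7a had 67 and 71 against 85 and 79 counts.

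Gm23935 belongs to a list of 14 RNAs that mostly lack poly(A) tails or collect reads of such RNAs, of which 5 were tested. Besides it, Rn7sk, the small nuclear RNA that holds back P-TEFb, had 9 and 13 against 5 and 3 counts, and Lars2, the mitochondrial leucyl-tRNA synthetase, had 732 and 612 against 605 and 567 counts. The 3 had an unadjusted p under 0.05, all higher, against 3.61% of all rows in that direction. The list summed to 2012 and 1939 CPM in the tKO against 1188 and 1219 CPM in the control libraries. Gm23935 alone made 1364 and 1384 CPM of the tKO sums and 756 and 752 CPM of the control sums. The sum was higher in both tKO libraries, and its part in the other differences was not tested.

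The 4 genes that are set aside lie side by side on chromosome 11, at Foxn1. All 4 were higher in both tKO libraries than in both controls. Unc119 had 250 and 207 against 97 and 78 counts and a log2 fold change of 1.69 (SE 0.149, adjusted p = 4.69e-05 by edgeR). Slc13a2os, an antisense gene that overlaps Slc13a2, had 94 and 75 against 19 and 15 counts, a log2 fold change of 2.61 (SE 0.27, adjusted p = 0.000236). Slc13a2, a citrate transporter, had 7 and 17 against 0 and 3 counts and did not pass (log2 fold change 3.20, adjusted p = 0.325 by edgeR). Foxn1 itself had 267 and 286 against 262 and 185 counts, or 184 and 194 CPM against 137 and 108 CPM, a log2 fold change of 0.62 (SE 0.128, adjusted p = 0.127 by edgeR). It passed in 2 of 14 alternatives, without a filter on low counts and with all 16 libraries. Of the other 28 tested genes within 500 kb of Foxn1, 0 had an unadjusted p under 0.05 in edgeR, with log2 fold changes from -0.41 to 0.64.

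Rbfox2 and Ptk2 share chromosome 15, 3656 kb apart. Of the other 151 tested genes within 5 Mb of Rbfox2, Ptk2 was the 1 with an adjusted p under 0.05. An unadjusted p under 0.05 was reached by 12 of the 151, against 6.26% of all rows. Arc, an immediate early gene of this region at 2406 kb from Rbfox2, had 29 and 48 counts in the tKO against 4 and 20 in the controls and a log2 fold change of 1.97 (SE 0.465, adjusted p = 0.21 by edgeR). The control libraries of Arc lay far apart, and its adjusted p passed without control replicate 2 and with no filter on low counts.

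Of the genes outside the adjusted p, the 10 with the smallest p and libraries that did not overlap were followed in each direction. Those that were higher were Gsta4, Muc5ac, Cd177, Dsg1a, Mmp3, Chil3, Muc5b, Actc1 and Sulf2 besides Foxn1, with adjusted p from 0.0626 (Gsta4) to 0.15 (Sulf2) in edgeR. Gsta4, a glutathione transferase for lipid aldehydes, had 59.9 and 88.7 CPM in the tKO against 22.6 and 32.2 CPM in the controls, with a log2 fold change of 1.45, and passed in 4 of 14 alternatives, DESeq2 among them. Muc5ac, a gel-forming mucin of stomach and airway, had 26 and 41 against 6 and 8 counts, or 17.9 and 27.8 CPM against 3.15 and 4.68 CPM, a log2 fold change of 2.54 (adjusted p = 0.0786 by edgeR). Muc5b, the main mucin of the lower airway, had 99.1 and 90.1 CPM against 34.1 and 18.7 CPM, a log2 fold change of 1.82 (adjusted p = 0.128 by edgeR), and passed in 4 of 14 alternatives, with sex as a covariate and in the 4 libraries alone among them. Control mice of the Rbfox1 line reached 19.2 CPM of Muc5ac and 39.2 CPM of Muc5b, so that both genes also varied among controls.

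Those that were lower were Plcd1, Adcy2, Clca3a2, Cbx2, Jarid2, Synpo2, Shisal1, Syt1, Ptprq and Cacna1b, with log2 fold changes from -0.98 (Plcd1) to -0.41 (Clca3a2). Plcd1, a phospholipase C of skin and hair, had 27.5 and 28.4 CPM in the tKO against 64.0 and 46.2 CPM in the controls (adjusted p = 0.15 by edgeR). Adcy2, an adenylyl cyclase, had 38.5 and 31.1 against 68.2 and 58.5 CPM, a log2 fold change of -0.87. Cbx2 and Jarid2, both of Polycomb repressive complexes, had 26.8 and 27.1 against 46.7 and 50.3 CPM and 36.5 and 38.6 against 59.8 and 64.3 CPM, with log2 fold changes of -0.84 (adjusted p = 0.21) and -0.72 (adjusted p = 0.249). None of the 10 passed, though all but Shisal1 and Cacna1b did when low-count genes were not left out.

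Muc5ac and Muc5b were among 20 mucous secretory genes that were listed after their values were seen, so that the counts of this list restate that choice. Of the 20, 14 were tested, 0 passed the adjusted p by either tool (DESeq2 gave none for 9), and 8 had an unadjusted p under 0.05 in edgeR, all higher, against 3.61% of all rows. The median log2 fold change was 1.03. Besides Muc5ac and Muc5b, Tff1, a trefoil peptide secreted with mucins, had 14 and 27 against 5 and 5 counts and a log2 fold change of 2.31, and Muc16 had 6 and 8 against 1 and 0 counts. Of 26 genes of other mimetic cell types, such as ciliated, microfold, muscle and neuroendocrine cells, 19 were tested, with 0 past the adjusted p by either tool (DESeq2 gave none for 11), 5 with an unadjusted p under 0.05 in edgeR, all higher, against the same 3.61%, and a median of 0.49. Actc1, the actin of cardiac muscle, had 24.8 and 47.4 CPM against 3.67 and 11.7 CPM, a log2 fold change of 2.26 (SE 0.479, adjusted p = 0.138 by edgeR), and passed in 3 of 13 alternatives. Ccl20, a chemokine made by epithelium over lymphoid tissue, had 39.9 and 26.4 against 18.9 and 14.6 CPM, a log2 fold change of 0.97 (adjusted p = 0.667). Dnah5, a dynein of motile cilia, went the other way at -0.91.

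Keratinocyte-like genes were 15 of 16 tested, with 0 past the adjusted p by either tool (DESeq2 gave none for 3), 3 with an unadjusted p under 0.05 in edgeR, all higher, against 3.61% of all rows, and a median of 0.42. Sprr1a, a precursor of the cornified envelope, had 133 and 178 CPM in the tKO against 67.7 and 104 CPM in the controls, with a log2 fold change of 0.86 (SE 0.195, adjusted p = 0.172 by edgeR), and passed in 2 of 14 alternatives. Krt10 had 284 and 297 against 139 and 232 CPM and a log2 fold change of 0.66 (adjusted p = 0.67). The list summed to 1819 and 1697 CPM against 936 and 1729 CPM, where control mouse 2 lay within the tKO range. Its median ranged from -0.05 to 0.96 over 6 alternatives. Of 15 tuft cell genes, 2 had an unadjusted p under 0.05, both higher, against the same 3.61% of all rows. These were Il25 with 18 and 16 against 12 and 7 counts and Ltc4s with 53 and 52 against 28 and 34 counts. The tuft cell list's median was 0.06 and 0 passed the adjusted p by edgeR or DESeq2 (none given for 9).

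**Figure D4:**
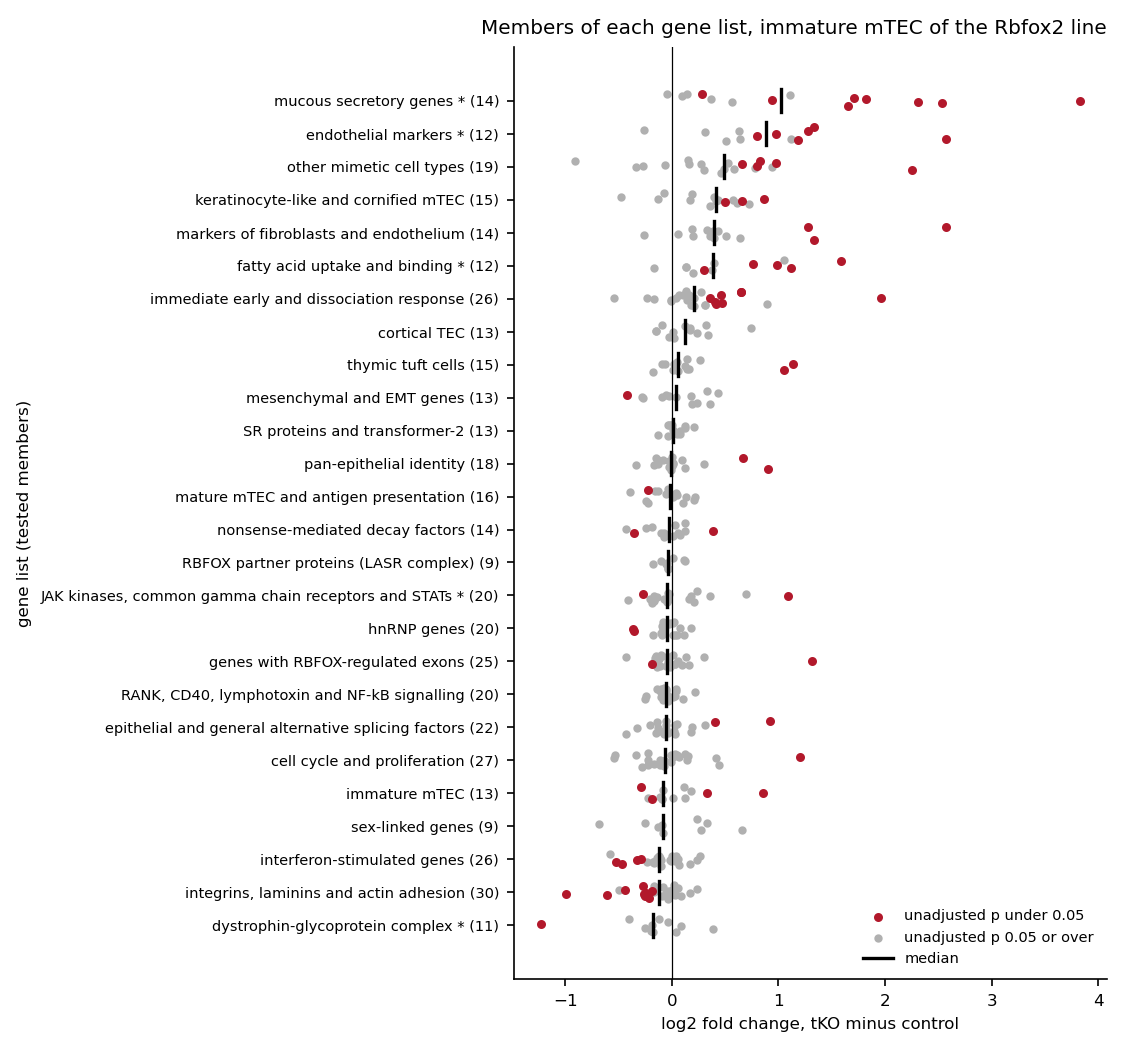
Each point is the log2 fold change, tKO minus control, of 1 tested member of a gene list, red where the unadjusted p was under 0.05, with black bars at the list medians and the number of tested members in brackets. Lists marked with an asterisk were drawn up after values were seen, and the other lists were chosen with earlier results of these data known. Medians run from -0.18 in the dystrophin-glycoprotein complex to 1.03 in the mucous secretory genes.

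The next lists hold genes that define the stages of mTEC and other thymic cells. Over all rows, 3.61% were higher and 2.65% lower at an unadjusted p under 0.05 in edgeR, to be read beside the counts of these lists. All 13 immature mTEC markers were tested and 0 passed the adjusted p in edgeR or DESeq2, with 2 higher and 2 lower at an unadjusted p under 0.05 in edgeR and a median of -0.08. Krt15, a keratin of basal cells, had 50.9 and 48.7 CPM in the tKO against 23.6 and 31.6 CPM in the controls and a log2 fold change of 0.86 (SE 0.223, adjusted p = 0.334 by edgeR). Trp63, the transcription factor of basal epithelium, had 462 and 303 against 459 and 435 CPM, with libraries that overlapped. Of 18 genes of mature mTEC and antigen presentation, 16 were tested, 0 passed by either tool, 1 had an unadjusted p under 0.05 (Ciita, log2 fold change -0.22) and the median was -0.01. Aire, which directs the expression of tissue-restricted genes, had 28 and 78 counts in the tKO against 76 and 60 in the controls and a log2 fold change of -0.06 (SE 0.33, adjusted p = 0.988 by edgeR), and the tKO libraries lay on either side of both controls. Fezf2 had 180 and 199 against 208 and 236 CPM, a log2 fold change of -0.23 (adjusted p = 0.817). The mature list summed to 15103 and 17190 CPM in the tKO and 15590 and 15230 CPM in the controls. Of 16 Aire-dependent self-antigens 6 were tested, with 2 higher and 1 lower at an unadjusted p under 0.05 in edgeR, 0 past the adjusted p and a median of 0.41, which ranged from -0.27 to 0.94 over 6 alternatives. Of 14 cortical genes 13 were tested, with 0 at that level in edgeR, 0 past the adjusted p in DESeq2 and a median of 0.12. The 18 pan-epithelial genes tested had 2 higher at that level, Ocln (0.90) and Cldn4 (0.67), and a median of -0.01, and the 13 mesenchymal genes tested 1 lower, Acta2 (-0.42), and a median of 0.04. Of 9 sex-linked genes tested 0 and of 4 mitochondrial genes tested 1 had an unadjusted p under 0.05 in edgeR, and none of these 4 lists had a gene past the adjusted p by either tool.

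Among the listed genes of RNA processing, Rbfox2 was the 1 that passed the test. Beside the counts below, 3.61% of all rows were higher and 2.65% lower at an unadjusted p under 0.05 in edgeR. The 9 partners of RBFOX in the large assembly of splicing regulators gave 0 with an unadjusted p under 0.05 in edgeR and 0 past the adjusted p in DESeq2, with log2 fold changes from -0.17 (Hnrnpul2) to 0.13 (Ddx5). The 13 SR proteins and transformer-2 genes also gave 0 by both tools. Of 22 tested epithelial and general splicing factors, 2 were higher at an unadjusted p under 0.05, among them Rbm20, a splicing factor of the heart, with 25 and 21 against 17 and 13 counts. Of 20 hnRNP genes 2 were lower at that level, Hnrnpll with a log2 fold change of -0.37 and Hnrnpdl with -0.35. Of 14 nonsense-mediated decay factors, 1 was higher (Magoh, 0.39) and 1 lower (Upf1, -0.36). None of these passed the adjusted p in edgeR or DESeq2, and the medians of the 5 lists lay between -0.05 and 0.01.

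Genes with exons that RBFOX proteins regulate in other tissues were measured here only as whole genes. All 25 were tested, with 0 past the adjusted p in edgeR or DESeq2 and a median of -0.05. At an unadjusted p under 0.05 in edgeR 1 was higher and 1 lower, against 3.61% and 2.65% of all rows. Itga6 was the lower and Cacna1c, a subunit of L-type calcium channels, the higher, with 23 and 32 counts in the tKO against 13 and 14 in the controls and a log2 fold change of 1.32 (SE 0.349, adjusted p = 0.358 by edgeR). It overlaps Dcp1b on the other strand, which had 24 and 26 against 32 and 30 counts. Fn1, which encodes fibronectin, had 322 and 216 against 304 and 254 CPM, and Insr, the insulin receptor, 74.3 and 54.8 against 56.1 and 59.1 CPM. Both had libraries that overlapped and log2 fold changes of -0.05 and 0.16, the sign of which turned when single libraries were left out. Myom2 had 18 and 16 against 16 and 18 counts. Gene counts hold no exon or junction values, so splicing of these genes was not analysed here.

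Immediate early genes are transcribed within minutes of a stimulus, tissue dissociation included. Of 28 such genes and genes induced by tissue dissociation, 26 were tested, 0 passed the adjusted p in edgeR or DESeq2, and 8 had an unadjusted p under 0.05 in edgeR, all higher, against 3.61% of all rows. The median was 0.21 here and 0.20 in the Rbfox1 line. Dusp1, a phosphatase of MAP kinases, had 109 and 128 CPM in the tKO against 72.4 and 79.5 CPM in the controls, with a log2 fold change of 0.65 (SE 0.142, adjusted p = 0.15 by edgeR), and Atf3, a stress-induced transcription factor, 73.6 and 84.0 against 47.8 and 53.2 CPM, a log2 fold change of 0.64 (adjusted p = 0.209). Interferon-stimulated genes, 26 of 28 tested, had 4 lower, against 2.65% of all rows, and 0 higher at an unadjusted p under 0.05 in edgeR, 0 past the adjusted p by either tool and a median of -0.12. Cxcl9, a chemokine induced by interferon gamma, had 72 and 62 counts against 134 and 105, a log2 fold change of -0.53 (adjusted p = 0.727 by edgeR). The 20 genes of RANK, CD40, lymphotoxin and NF-kB signalling, which drive mTEC maturation, gave 0 at an unadjusted p under 0.05 in edgeR and 0 past the adjusted p in DESeq2, with a median of -0.05. Of 27 cell cycle genes 1 was higher at that level, and the median was -0.06.

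Mature mTEC were measured in the same mice. In mature mTEC 10 of 18021 tested rows, 0.0555%, had an adjusted p under 0.05. Rbfox2, Ptk2, Itga3, Unc119 and Slc13a2os were both among these 10 and among the 12 of immature mTEC, 41.7% of the 12 and 50% of the 10, all in the same direction. Unc119 and Slc13a2os are the set-aside neighbours of Foxn1 and Rbfox2 is the deleted gene, which leaves Ptk2 and Itga3 as shared. Itga3 had 170 and 175 CPM in the mature tKO against 283 and 276 CPM in the mature control libraries, a log2 fold change of -0.70 (adjusted p = 0.000546 by edgeR). Ptk2 had 29.0 and 22.5 against 51.6 and 46.2 CPM, a log2 fold change of -0.94 (adjusted p = 0.0187 by edgeR). Jak3 had 59.3 and 67.4 against 36.6 and 47.4 CPM, 0.60 on the log2 scale, and did not pass (adjusted p = 0.234). Sspn had 22 and 23 against 50 and 33 counts (log2 fold change -0.82, adjusted p = 0.742), and Cd36 43 and 53 against 37 and 33 counts (log2 fold change 0.51, adjusted p = 0.927). Fabp4 was at 355 and 366 against 360 and 381 CPM in mature mTEC (log2 fold change -0.04), and 5330417C22Rik was at 0.08. Acta2, Arc, Fbxo32, Foxn1 and Slc13a2 passed in mature mTEC and not in immature mTEC.

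The difference between the effect in immature and in mature mTEC was tested in all 16 libraries. Without the mouse in the model, 0 of 17442 rows had an adjusted p under 0.05 in edgeR, 908 (5.21%) had an unadjusted p under 0.05, and DESeq2 passed 2, Fabp4 and Muc5ac. Mature and immature libraries come from the same mice, and with the mouse as a replicate block 64 rows passed in edgeR, 0.367%, of which 57 (0.327%) were higher in the immature than in the mature comparison and 7 (0.0401%) lower. Among the 57 were Fabp4 (difference 1.0, adjusted p = 1.25e-05 with the block), 5330417C22Rik (1.01, 0.000515), MSTRG.59595 (0.90, 0.00117), Gsta4 (1.6, 1.15e-07), Muc5ac (2.58, 1.59e-06), Muc5b (2.25, 2.09e-06), Actc1 (2.47, 1.25e-05), Chil3 (1.10, 0.0026) and Cd177 (1.15, 0.00206). Cd36 (1.07, adjusted p = 0.192), Jak3, Sspn, Ptk2 and Itga3 were not. A lower adjusted p did not always come with a smaller standard error. With the block the SE of Muc5b went from 0.566 to 0.346 and that of Fabp4 from 0.185 to 0.164. That of Chil3 went from 0.229 to 0.230, while its adjusted p in edgeR went from 0.226 to 0.0026. Why the block calls more rows was not tested. Muc5ac had 18.1 and 28.2 CPM in immature tKO, 3.24 and 4.78 CPM in immature control and 98.3 to 114 CPM in the mature libraries of the line, on a common scale. Aire, with 635 to 903 CPM in mature and 19.5 to 53.7 CPM in immature libraries, was higher in 1 immature tKO library and lower in the other than both controls.

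**Figure D5:**
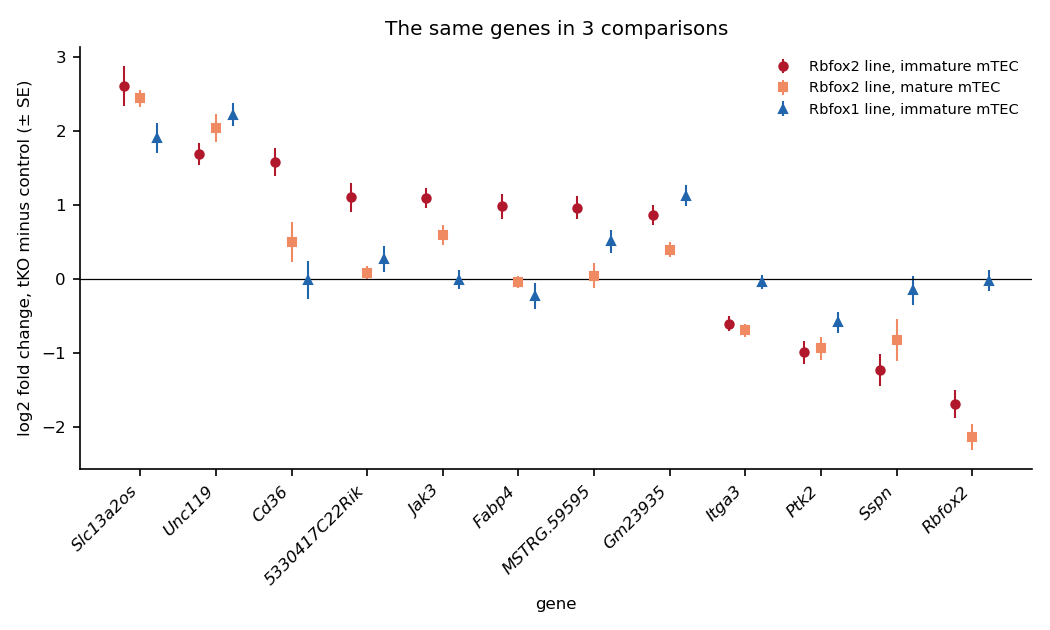
Log2 fold change, tKO minus control, with its standard error for the 12 genes that passed the adjusted p in immature mTEC of the Rbfox2 line, in that comparison (red circles), in mature mTEC of the same mice (orange squares) and in immature mTEC of the Rbfox1 line (blue triangles). Itga3, Ptk2, Sspn and Rbfox2 lie below 0 in both populations of the Rbfox2 line. Fabp4 is at 0.98 in its immature and -0.04 in its mature mTEC, 5330417C22Rik at 1.11 and 0.08, and Cd36 at 1.59 and 0.51.

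In immature mTEC of the Rbfox1 line, whose tKO mice carry the same Cre allele, 5 of 13060 rows had an adjusted p under 0.05 (0.0383%). Unc119, Slc13a2os and Gm23935 passed in both lines, 25% of the 12 and 60% of the 5, and rose in both. Unc119 and Slc13a2os are set aside as neighbours of Foxn1, so that outside this region only Gm23935 was shared. The others of the 5 were MSTRG.52583 and Foxn1 itself, with a log2 fold change of 0.95 in the Rbfox1 line (adjusted p = 0.00152 by edgeR). Gm23935 had 699 and 1031 CPM in the Rbfox1 tKO against 360 and 430 CPM in its controls, a log2 fold change of 1.13. Cd36, Jak3 and Itga3 were near 0 in that line, at -0.01, -0.01 and -0.04, and Sspn was at -0.16. Ptk2 was at -0.59 in the Rbfox1 line, with 46.4 and 46.3 CPM against 69.3 and 70.1 CPM (adjusted p = 0.306 by edgeR). The difference of the effects was itself tested, and 577 of 13060 rows (4.42%) had an unadjusted p under 0.05. Rbfox2, which is deleted in the Rbfox2 line alone, was the 1 row (0.00766%) with an adjusted p under 0.05, at -1.67 (adjusted p = 0.0395 by edgeR). Muc5ac (4.05, adjusted p = 0.108), Jak3 (1.11, 0.114) and Cd36 (1.6, 0.378) did not pass in edgeR. The difference for Muc5ac also holds a log2 fold change of -1.51 in the Rbfox1 line (adjusted p = 0.687 by edgeR). There it had 5.86 and 3.52 CPM in the tKO against 7.98 and 19.2 CPM in the control libraries. DESeq2 passed Rbfox2 and Muc5ac, as did edgeR with all 16 libraries, and Cd36 and Jak3 were among the 33 genes that passed with no filter on low counts.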

How the data were processed

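RNA was from FACS-sorted cells of single mice, and stranded, paired-end, poly(A)-selected libraries were sequenced. The authors deposited 1 table of read counts per gene for all 16 libraries, not normalized, which they made with HISAT2 2.1.0, Picard 2.10.9 and featureCounts 1.6.0 on mm10 by the submitters' processing notes. Libraries had been down-sampled, to 10000000 in immature mTEC by the column names. The strand setting of the counting is not stated in the sources at hand, so antisense partners such as Slc13a2 and Slc13a2os cannot be told apart. Names and positions of 53360 of 53464 Ensembl rows came from GENCODE M21 (GRCm38), and 35943 rows are assembled loci.

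Counts were analysed in edgeR 4.0.16 (R 4.3.3) with TMM scaling, the low-count filter filterByExpr (minimum count 10) and quasi-likelihood tests, with a mean for each line and genotype and 4 residual degrees of freedom. Genes were called at an adjusted p under 0.05 and a fold over 2, and differences of effects at the adjusted p alone. The 2 libraries of a group differed by more than counting noise (chi-square per degree of freedom 1.86 in tKO and 1.89 in control mice). The numbers of tKO and control mice were not taken as pairs, whereas mature and immature libraries of a number share a mouse (correlation of deviations 0.136 and 0.157). Alternatives were DESeq2 1.42.0, other scalings, filters, library sets and covariates, and each library left out, where a lone library is taken to vary like the other groups. Named are all genes with an adjusted p under 0.05, the 10 in each direction with the next smallest p and no overlap, and in each of 27 lists up to 4 members with the largest change. Members and lists were chosen with earlier results of these data known, and 5 further lists, with the other genes named, after the values were seen. Figures were drawn in matplotlib 3.10.9.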

Additional observations from a re-analysis of the deposited data

Results flagged for a closer look

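The effect of the tKO on Rbfox2 differed between the lines in immature mTEC, by a test of the difference itself. Rbfox2 is the gene deleted in the Rbfox2 line alone, so this difference was set by the design and shows only that the deletion is seen. Rbfox2 fell by 1.69 on the log2 scale in the Rbfox2 line and was at -0.03 in the Rbfox1 line, a difference of -1.67 (adjusted p = 0.0395 by edgeR). Groups of 2 mice are too small for a test of single outlying libraries.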

How the results depend on the processing

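The number of genes called in the immature comparison, 7, stayed between 6 and 9 in DESeq2, with DESeq2's size factors, with library totals, with at least 10 counts in every library, with sex as a covariate, in the 4 libraries of the line alone and in Ensembl genes alone. It was 12 without the fold threshold, 11 with all 16 libraries and 48 with no filter, and 5 to 10 with each of the 4 libraries left out. Tested with a replicate block of same-numbered tKO and control mice it was 10, which held all 7 and added Actc1, Gsta4 and Muc5b, and the adjusted p of Sprr1a passed too. The methods name sex-matched littermates, but the labels tie no number to a litter. The deviations of these mice correlated by 0.0847, or 0.0356 without the X and Y chromosomes, so the numbers were not taken as pairs. Cd36, Rbfox2, Unc119 and Slc13a2os kept an adjusted p under 0.05 in each of 14 alternatives.

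The difference between the lines, 1 gene, gave 2 genes in DESeq2 and 2 with all 16 libraries, Rbfox2 and Muc5ac in both, 33 with no filter and 1 with the replicate block, and 0 to 6 with each of the 8 immature libraries left out. It was 0 without Rbfox2 tKO replicate 2, Rbfox2 control replicate 1, either Rbfox1 tKO library or Rbfox1 control replicate 3, and 6 without Rbfox1 control replicate 2. The difference between immature and mature mTEC, 0 genes without the mouse in the model, gave 2 in DESeq2, 2 in the 8 libraries of the line alone and 34 with no filter. It gave 64 with the replicate block by mouse, and the fit with this block was not repeated with a mouse left out. Why an absent filter calls more genes was not tested.

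Over 94 genes and their alternatives, 1161 of 1263 values kept their direction and their side of the adjusted p, 39 lost it, 56 gained it and 7 reversed. Only the 12 genes that passed in the main fit could lose the adjusted p, so most of these values come from genes that did not have it. The reversals were in 5 genes that did not pass. With each of the 4 libraries left out, Rbfox1 ranged from -0.13 to 0.0834, Fn1 from -0.36 to 0.20, Insr from -0.0624 to 0.37, Trp63 from -0.55 to 0.0452 and Aire from -0.96 to 0.50. Of 192 list medians, 26 moved by more than the spread between libraries and 20 changed sign. Depth was lower in both tKO libraries, and genes of few counts had wide errors, such as Slc13a2 (SE 0.826), Itga2 (0.603) and Emcn (0.809).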
